A study of Mus musculus with 6 samples.

Results

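The 37 genes described here serve glucose uptake, breakdown to pyruvate, lactate formation and export, or the entry of pyruvate into mitochondrial metabolism. They were chosen by symbol from the textbook pathway, with earlier results of these data known, and all 37 were found among the 26778 genes of the deposited table. RNA was sequenced from macrophages derived from bone marrow, primary cells of C57BL/6 mice that had been grown from marrow for 7 days in medium conditioned by L292 cells, as the labels spell it. The 6 libraries came from Flt1+/+ (wild type, n = 3) and Flt1+/- (heterozygote, n = 3) cells, where Flt1, also written Flt-1 or VR1, encodes a receptor for vascular endothelial growth factor. Every library of both genotypes was made after 6 h in starvation medium at 2% oxygen, so the comparison is of genotypes under that challenge, and no unchallenged library was analysed here. The labels give neither the age of the mice nor whether the libraries of a genotype came from separate animals, so p-values reflect only how these libraries vary, which could be technical variation.

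Glycolysis splits glucose into pyruvate in the cytosol and yields ATP without oxygen. When oxygen is low, pyruvate is largely reduced to lactate, which regenerates the NAD that the pathway needs. Kinases that switch off the pyruvate dehydrogenase complex restrain the use of pyruvate inside the mitochondrion. Many of these steps exist as isoforms, and hypoxia-inducible factors (HIF), which are stabilised by low oxygen, are known to activate particular ones, such as Slc2a1, Hk2, Pfkfb3, Ldha, Pdk1 and Slc16a3. Macrophages rely on glycolysis when activated and in tissue that is short of oxygen.

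The deposited table holds a mean normalized count per genotype (reads divided by a size factor per library) and the authors' test between genotypes. Reads of each library were worked out from the group means for 35 of the 37 genes. For Aldoa and Pkm, the most abundant, several sets of reads gave the same mean, so group means only are given. The 6 libraries held about 25130000 to 42070000 counted reads. They are lettered A to C in each genotype, since nothing links them to the replicate numbers of the labels. The targeted gene does not check the labels, since Flt1 stood at 3.70, 10.3 and 6.04 normalized counts in Flt1+/+ and 17.1, 12.9 and 8.19 in Flt1+/- libraries (adjusted p = 0.641 in the authors' deposited table), so directions are given between libraries by their labels. Reads of mt-Co2, a mitochondrial gene, numbered 0 in 3 libraries (Flt1+/+ C, Flt1+/- B and Flt1+/- C) and came to 4069.6 to 4751 normalized counts elsewhere, a split that crosses genotype. Macrophage markers were abundant, with Adgre1 (F4/80) at group means of 294266 and 258965.

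By the authors' deposited test, at a threshold of 0.05 on the adjusted p, 13 of the 37 genes fell in the libraries labelled Flt1+/-, which is 35.1% of them beside 3.52% of the 15789 genes tested. Of the rest, 1 rose, beside 2.51% of all genes tested, and 23 were not called. Those that fell were Slc2a1, Hk2, Gpi1, Pfkl, Pfkfb3, Tpi1, Pgam1, Eno1, Eno2, Ldha, Pdk1, Slc16a1 and Slc16a3, and the gene that rose was Slc2a3. The group means of the 13 differed in how far they dropped: Gpi1 fell by 23.0% and Eno2 fell by 71.9%, with the others between. Of the 35 genes whose reads per library were recovered, every Flt1+/- library lay below every Flt1+/+ library in 15 (42.9%) and above in 5 (14.3%), beside 12.3% and 11.4% of all genes with a mean of at least 10. The 15 hold all 13 genes that fell, with Pdk2 and Pdk3. The median log2 ratio of the group means (pseudocount 1) was -0.28 over the 37 genes and -0.01 over all genes tested, and 27 of the 37 ratios lay below 0. Together the 37 genes took 1.08% of all normalized counts in Flt1+/+ and 0.772% in Flt1+/-.

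Another test, limma on log2 of the recovered normalized counts, called 8 of the 35 genes it could fit lower and 0 higher, beside 1.49% lower, 0.867% higher and 2.35% in either direction of 15464 genes. The 8 were Hk2, Pfkl, Pfkfb3, Tpi1, Pgam1, Eno2, Ldha and Pdk1. At an unadjusted p of 0.05 or less it had 15 of 35 lower and 2 higher, Slc2a3 and Pdk4, beside 9.05% and 8.07% of all genes fitted. Only Eno2 and Ldha were called in every omission of 1 library: the count was 2 without wild type library A, B or C, 3 without heterozygote library C, 6 without heterozygote library A and 10 without heterozygote library B. For Tpi1, Pfkfb3 and Ldha, several sets of wild type reads fitted the mean. The set with libraries alike was taken, which favours a small spread in limma. As bulk RNA was sequenced, fewer cells of a type and less RNA per cell cannot be told apart.

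**Figure D1:**
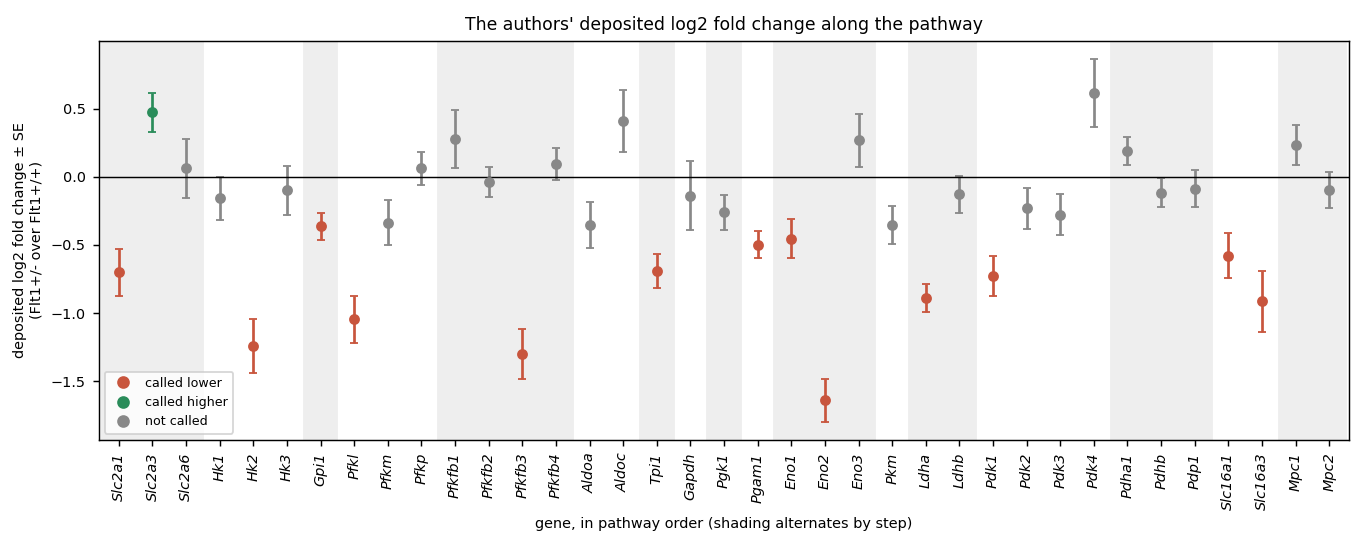
The authors' deposited log2 fold change (vertical axis, Flt1+/- over Flt1+/+, bars give the SE) for the 37 genes in pathway order along the horizontal axis. The 13 genes called lower lie between -0.36 (Gpi1) and -1.64 (Eno2), and the 1 called higher, Slc2a3, lies at 0.47.

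Markers of other cells moved with genotype too. Of the 16 neutrophil and precursor genes listed, 9 rose and 1 fell of 12 tested, among them S100a9, which went from 91.4 ± 12.7 to 1507 ± 95.0 normalized counts (SD, n = 3), and Ngp, from 11.5 ± 1.47 to 708 ± 157. The summed level of the list ran from 10581 to 11464 normalized counts in Flt1+/+ and 12221 to 13134 in Flt1+/- libraries, and Csf3r, the member that fell, made up 68.7 to 72.8% of it in Flt1+/+ and 41.3 to 45.6% in Flt1+/-. The primary granule genes Elane, Prtn3 and Ctsg were at 0 in Flt1+/+ and at means of at most 2.36 in Flt1+/-, while Mpo, another, stood at 6.47, 8.39 and 0 in Flt1+/+ and 2.45, 0 and 6.83 in Flt1+/-, and none of these 4 was tested. Of 10 macrophage genes 2 fell, Csf1r with a log2 fold change of -0.54 (SE 0.10, adjusted p = 1.77e-06) and Cd68 with a log2 fold change of -0.60 (SE 0.13, adjusted p = 0.000327) in the authors' deposited table. The 7 macrophage genes with recovered reads summed to 92687 to 97426 normalized counts in Flt1+/+ and 62839 to 77109.8 in Flt1+/- libraries. Csf1r, which fell, was a large part of that sum, with group means of 45697 and 31060. The sum leaves out the more abundant Lyz2, Adgre1 and Itgam, none of them called. Their group means in Flt1+/+ and Flt1+/- were 441691 and 458049, 294266 and 258965, and 55342 and 47826. Acta2 rose among 7 tested fibroblast and stromal genes. The 8 such genes listed summed to 605 to 922 normalized counts in Flt1+/+ and 788 to 1318 in Flt1+/- libraries. The lymphoid and erythroid genes listed were at means of at most 8.49, with none tested. The part of these shifts in the values of the glycolysis genes was not tested.

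Of the 6 genes of glucose uptake and trapping 2 fell and 1 rose. Glucose enters through facilitative transporters. Slc2a1, which encodes the broadly expressed transporter GLUT1, stood at 9986, 12239.6 and 14256 normalized counts in Flt1+/+ libraries A, B and C and 5377, 7824 and 7689 in Flt1+/- libraries A, B and C. Each heterozygote library lay below the lowest wild type library, and the group mean fell by 42.7%, with a log2 fold change of -0.70 (SE 0.17, adjusted p = 0.00189) in the authors' deposited table. The limma adjusted p was 0.084, which misses 0.05. Slc2a3, the high-affinity transporter GLUT3, went the other way, at 516, 422 and 442 in Flt1+/+ and 689, 685 and 594 in Flt1+/-. Its groups did not overlap either, and the authors' deposited table lists a log2 fold change of 0.47 (SE 0.14, adjusted p = 0.0204), against a limma adjusted p of 0.0983. Slc2a6, a transporter of the lysosomal membrane, was spread widely in Flt1+/-, at 1096, 2019.7 and 924, around wild type values of 1435, 1091 and 1299.7. Per kb of exons, the scale on which levels of different genes are compared here, Slc2a1 took 88.0% ± 2.97 in Flt1+/+ and 79.6% ± 5.26 in Flt1+/- of the reads of the 3 transporters (mean ± SD, n = 3 each). Exon length here merges all annotated exons of a gene, so it can exceed the length of the transcript in use. Levels compared between genes depend on that choice. Slc2a3 took 1.65% ± 0.408 in Flt1+/+ and 3.74% ± 0.94 in Flt1+/-. The Slc2a1 shares of the genotypes overlapped per kb but not without correction for length, where they went from 87.3% ± 3.12 to 77.6% ± 5.11. The Slc2a3 shares did not overlap on either scale. The sum of the 3 transporters per kb went from 3929 ± 584 to 2496 ± 496.

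Hexokinases trap glucose in the cell by phosphorylating it, and 1 of the 3 genes fell. Hk2 (chromosome 6, 82725025 to 82774454, build mm10), the inducible form that binds mitochondria, stood at 12783, 14311 and 16600.0 normalized counts in Flt1+/+ libraries A, B and C and 3192, 6283 and 5726 in Flt1+/- libraries A, B and C. The lowest wild type library had more than any heterozygote library, the group mean fell by 65.2%, and the authors' deposited table lists a log2 fold change of -1.24 (SE 0.20, adjusted p = 8.17e-08). Hk1, the form known as the housekeeping one, stood at 3957, 2911 and 3733 in Flt1+/+ and 2679, 3557 and 3137 in Flt1+/-, and Hk3, a form abundant in myeloid cells, at 9192, 11004 and 12124 in Flt1+/+ and 7125, 11696 and 11031 in Flt1+/-. Both overlapped between genotypes, with 95% intervals of the limma log2 difference of -0.53 to 0.18 for Hk1 and -0.62 to 0.34 for Hk3, against -2.17 to -0.98 for Hk2. Within each library the Hk2 share of hexokinase reads per kb went from 42.2% ± 0.461 to 21.4% ± 1.87 and that of Hk3 from 50.6% ± 1.62 to 69.1% ± 0.608. Neither share overlapped between genotypes. An exact permutation test (two-sided) gave p = 0.1 for both, which is the smallest that 3 against 3 libraries allow. Shares in a family trade off: where 1 falls, the others together rise. Hk2 was called on these same libraries and Hk3 reads were not called, so the shares and their test are no separate result. The same holds for the shares of every family here. Summed per kb, hexokinase reads went from 5780.1 ± 706 to 3918 ± 995.

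HIF binds DNA at a short core, ACGTG or GCGTG, and the promoters of the genes were searched for either word on both strands in the 250 bases before the start of transcription (RefSeq, GRCm38.p6, which is mm10). Overlapping matches were counted as 1 site, and a site may also be part of the longer word CACGTG, which other factors bind. The table of promoters held 35 of the 37 genes (not Slc2a3 or Pdp1), and where it gave several starts the one nearest the main GENCODE transcript was taken. At least 1 site was found in 30 of 35, or 85.7%, beside 54.1% of 13243 promoters of tested genes and 38.6% of all 32851. The 2 latter shares count every start of a gene, alternative ones included, so they are not like for like with 1 chosen start per gene. The start taken for Hk1, which had a site, lay 17941 bases from that of the main GENCODE transcript. The median number of CG pairs, on which both words depend, was 14 in the 35 and 15 in promoters of tested genes. By call, 10 of 13 promoters of genes that fell had one, and 20 of 22 of genes not called. A match is a description of the letters and not evidence of binding. The upstream sequences of Hk2 (chr6:82774455-82774704, minus strand) and Hk3 (chr13:55021386-55021635, minus strand) are shown because Hk2 fell and Hk3 was not called. They are written 5′ to 3′ in the direction of transcription, and capitals mark either word or its reverse complement, CACGT or CACGC.
Hk2: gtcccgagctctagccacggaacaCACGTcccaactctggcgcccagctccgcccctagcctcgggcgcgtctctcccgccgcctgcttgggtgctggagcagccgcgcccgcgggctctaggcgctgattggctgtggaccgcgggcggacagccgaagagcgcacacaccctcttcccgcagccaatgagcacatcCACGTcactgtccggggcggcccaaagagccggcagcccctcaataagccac
Hk3: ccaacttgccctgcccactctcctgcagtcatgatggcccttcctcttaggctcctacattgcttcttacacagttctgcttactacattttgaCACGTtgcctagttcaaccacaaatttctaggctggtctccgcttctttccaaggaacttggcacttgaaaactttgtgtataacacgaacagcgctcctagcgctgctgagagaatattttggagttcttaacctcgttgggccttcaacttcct
Hk2 held 2 sites and Hk3 1.

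The next steps isomerise glucose phosphate, add another phosphate at the committed step, and split the sugar, and 4 of their 11 genes fell, Gpi1, Pfkl, Pfkfb3 and Tpi1. Gpi1, glucose phosphate isomerase, stood at 32624, 31769.8 and 32400.4 in Flt1+/+ and 23068, 26603 and 24852 in Flt1+/-. The group mean fell by 23.0%, the smallest fall among the genes called, with a log2 fold change of -0.36 (SE 0.10, adjusted p = 0.00718) in the authors' deposited table and a limma adjusted p of 0.0606. Of its 50-base stretches 15.8% also occur in transcripts of other genes. Phosphofructokinase is built from liver, muscle and platelet type subunits, which are encoded by Pfkl, Pfkm and Pfkp. Pfkl stood at 8452, 7734 and 8701 normalized counts in Flt1+/+ libraries A, B and C and 2684, 4551 and 3604 in Flt1+/- libraries A, B and C. It fell by 56.5% without overlap, with a log2 fold change of -1.05 (SE 0.17, adjusted p = 1.69e-07) in the authors' deposited table. Pfkm stood at 875, 892 and 814 in Flt1+/+ and 577, 829.9 and 573 in Flt1+/- and Pfkp at 3479.5, 3456 and 3808 in Flt1+/+ and 3460.1, 4189 and 3593 in Flt1+/-, and neither was called. Heterozygote library B kept the Pfkm groups from separating, and the interval of the limma log2 difference was -0.78 to -0.02 for Pfkm and -0.17 to 0.30 for Pfkp. The Pfkl share of the 3 subunits per kb went from 70.3% ± 1.28 to 52.7% ± 3.88 and that of Pfkp from 15.1% ± 0.526 to 27.8% ± 2.95, both without overlap (exact permutation p = 0.1, two-sided). As for Hk3, the rise in the Pfkp share goes with the fall of Pfkl and is no separate result. Without correction for length the Pfkp share went from 28.1% in Flt1+/+ to 47.2% in Flt1+/-.

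Bifunctional enzymes of the PFKFB family make and remove a regulatory sugar phosphate that stimulates phosphofructokinase. Pfkfb3 (chromosome 2, 11471433 to 11554077), the isoform with the highest ratio of kinase to phosphatase activity, stood at 22282, 22286 and 24454 normalized counts in Flt1+/+ libraries A, B and C and 7983, 5673 and 10401 in Flt1+/- libraries A, B and C. It fell by 65.1%, with a log2 fold change of -1.30 (SE 0.18, adjusted p = 2.13e-10) in the authors' deposited table, and unlike most of the genes that fell it was lowest in heterozygote library B. Pfkfb4, which HIF is also known to induce in other cells, stood at 2045, 2017 and 2039 in Flt1+/+ and 1917, 2274 and 2353 in Flt1+/-, with a limma interval of -0.14 to 0.33. Pfkfb2, described first in heart, was not called either, at 833, 846 and 853 in Flt1+/+ and 854, 784 and 826 in Flt1+/-. Pfkfb1, the liver form, was low at 79.5, 69.9 and 57.3 in Flt1+/+ and 92.1, 83.5 and 88.7 in Flt1+/-, and although every heterozygote library lay above every wild type library neither test called it (adjusted p = 0.614 in the authors' deposited table). Of PFKFB reads per kb Pfkfb3 took 84.7% ± 0.705 in Flt1+/+ and 63.7% ± 7.01 in Flt1+/-, and Pfkfb4 11.6% ± 0.501 in Flt1+/+ and 27.9% ± 5.89 in Flt1+/-. The wild type shares lay within 84.2 to 85.5% for Pfkfb3, and the heterozygote shares within 55.8 to 69.0%. The family summed per kb went from 3594 ± 165 to 1643 ± 328. The upstream sequences of Pfkfb3 (chr2:11502091-11502340, minus strand) and Pfkfb4 (chr9:108991652-108991901, plus strand) show the paralogue that fell beside the one that was not called, with sites in capitals as above.
Pfkfb3: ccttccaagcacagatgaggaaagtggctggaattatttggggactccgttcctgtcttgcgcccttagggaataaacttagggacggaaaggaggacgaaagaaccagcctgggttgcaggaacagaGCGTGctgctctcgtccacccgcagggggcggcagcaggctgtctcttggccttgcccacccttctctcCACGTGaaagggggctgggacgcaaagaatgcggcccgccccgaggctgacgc
Pfkfb4: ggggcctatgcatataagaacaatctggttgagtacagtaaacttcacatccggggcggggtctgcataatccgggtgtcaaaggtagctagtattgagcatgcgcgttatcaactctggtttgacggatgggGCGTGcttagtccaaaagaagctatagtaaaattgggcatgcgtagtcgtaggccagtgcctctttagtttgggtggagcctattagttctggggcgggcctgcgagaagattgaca
The Pfkfb3 window held 2 sites, 1 of them within CACGTG, and that of Pfkfb4 held 1.

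**Figure D2:**
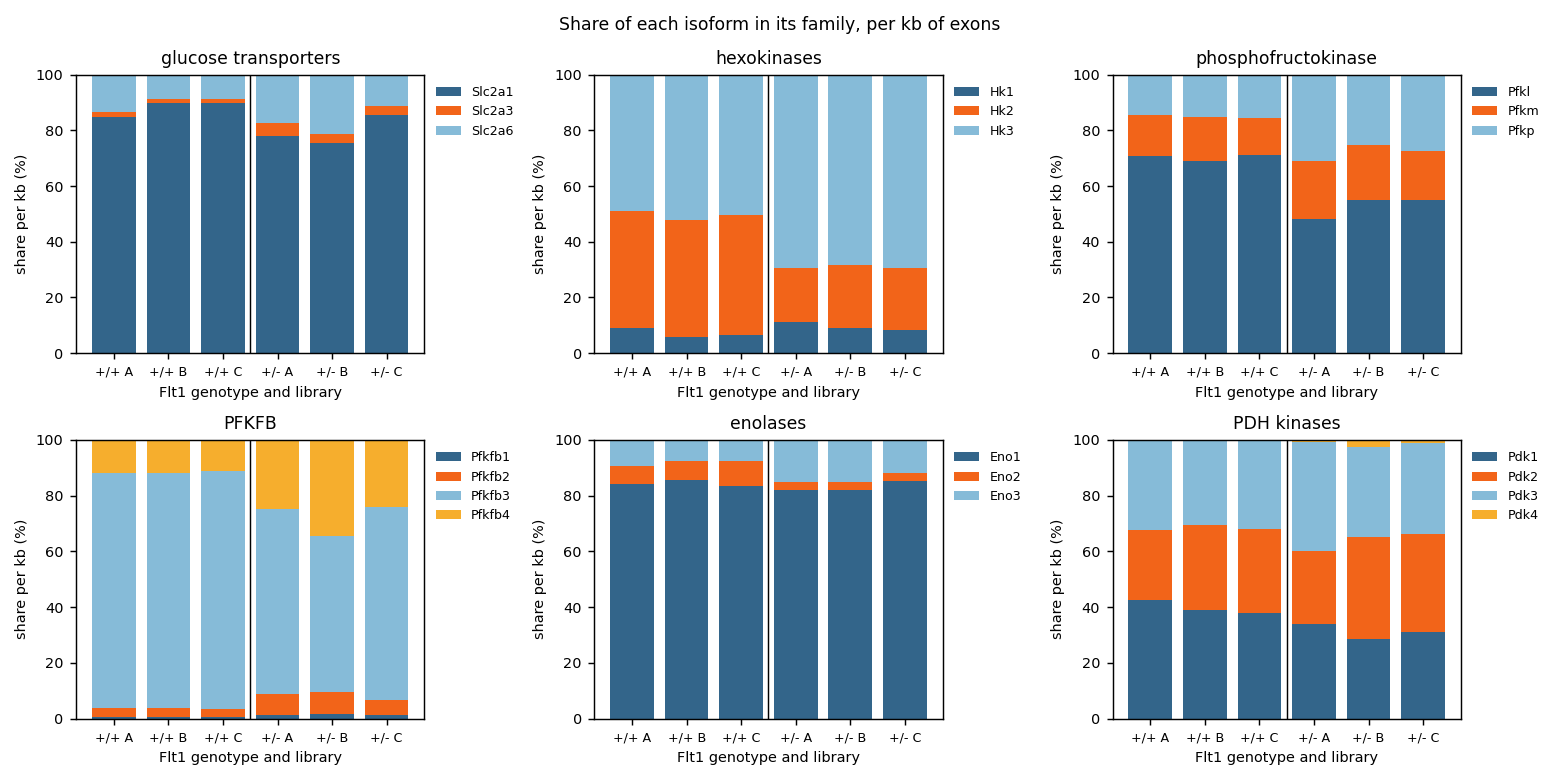
Share of each isoform in its family, in percent of reads per kb of exons (vertical axis), in each of the 6 libraries (horizontal axis), for 6 families. Hk2, Pfkl and Pfkfb3 take smaller shares in every Flt1+/- library (right of the line) than in any Flt1+/+ library, with mean shares of 21.4, 52.7 and 63.7% against 42.2, 70.3 and 84.7%.

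Aldolase cleaves fructose bisphosphate, and Tpi1 interconverts the products. Aldoa, the main aldolase, had group means of 54936 and 41597 normalized counts in the authors' deposited table, with a log2 fold change of -0.35 (SE 0.17, adjusted p = 0.251), and was not called. Aldoc, far less abundant, stood at 346, 153 and 194 in Flt1+/+ and 373, 300.2 and 343 in Flt1+/-, where wild type library A lay among the heterozygote libraries. Tpi1 stood at 21735, 18701 and 18609 normalized counts in Flt1+/+ libraries A, B and C and 10574, 12734 and 12154 in Flt1+/- libraries A, B and C. It fell by 39.9% without overlap, with a log2 fold change of -0.69 (SE 0.12, adjusted p = 1.9e-06) in the authors' deposited table.

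In lower glycolysis 3 of 7 genes fell, Pgam1, Eno1 and Eno2, with a median log2 ratio of -0.38 over the 7. Gapdh, glyceraldehyde phosphate dehydrogenase, varied more between libraries than between genotypes, at 1771, 4879 and 5174 normalized counts in Flt1+/+ libraries A, B and C and 3647, 4244 and 1287 in Flt1+/- libraries A, B and C. Wild type library A and heterozygote library C were low and the other libraries high, so the groups overlapped, and the limma interval was -1.71 to 0.93. Of the 50-base stretches of Gapdh transcripts 25.1% recur in transcripts of 223 other genes, so its count is uncertain. At 954 normalized counts per kb of merged exons in Flt1+/+ it was counted far below its neighbours in the pathway, Tpi1 at 7149 and Pgk1 at 13021.

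Pgk1, phosphoglycerate kinase, which makes the first ATP of the pathway, stood at 33049.6, 27963 and 26643 in Flt1+/+ and 26684, 22383 and 23069 in Flt1+/-. The wild type C and heterozygote A libraries were nearly level, and the authors' deposited table lists a log2 fold change of -0.26 (SE 0.13, adjusted p = 0.287), so it was not called. Pgk1 shares 53.9% of its 50-base stretches with other transcripts, the highest of the 37 genes. Pgam1, phosphoglycerate mutase, stood at 18312, 16615 and 16426 normalized counts in Flt1+/+ libraries A, B and C and 12066, 12492 and 11276 in Flt1+/- libraries A, B and C. It fell by 30.2% with little spread in either genotype, and the authors' deposited table lists a log2 fold change of -0.50 (SE 0.10, adjusted p = 7.14e-05); 36.2% of its 50-base stretches are shared.

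Enolases make phosphoenolpyruvate. Eno1, the ubiquitous form, stood at 26644, 23578 and 20368 in Flt1+/+ and 15100.1, 19058 and 15905 in Flt1+/- and fell by 29.1%, with a log2 fold change of -0.45 (SE 0.14, adjusted p = 0.0285) in the authors' deposited table and a limma adjusted p of 0.121. A near-identical gene, Eno1b, had a log2 fold change of -0.58 (SE 0.19, adjusted p = 0.0438) in the authors' deposited table, and 26.0% of the 50-base stretches of Eno1 recur elsewhere, so reads may be split between the pair. Eno2 (chromosome 6, 124760053 to 124769673), known as the neuronal enolase, had the deepest fall of the 37 genes. It stood at 1799, 1677 and 1938 normalized counts in Flt1+/+ libraries A, B and C and 430.5, 623 and 468 in Flt1+/- libraries A, B and C. The group mean fell by 71.9%, with a log2 fold change of -1.64 (SE 0.16, adjusted p = 2.75e-22) in the authors' deposited table and a limma log2 difference of -1.84 (interval -2.21 to -1.48, adjusted p = 0.00447). Eno3, the muscle form, stood at 947, 681 and 599 in Flt1+/+ and 911, 1138 and 729 in Flt1+/-, with overlap. Of enolase reads per kb Eno2 took 7.51% ± 1.37 in Flt1+/+ and 2.87% ± 0.193 in Flt1+/-, without overlap. Eno1 took 84.3% ± 1.04 in Flt1+/+ and 83.0% ± 1.82 in Flt1+/-, with overlap, and without correction for length its share went the other way, from 90.2% ± 1.08 to 92.1% ± 0.77, without overlap. The upstream sequence of Eno2 (chr6:124769674-124769923, minus strand) is shown because the gene that fell most had no ACGTG or GCGTG in this window, so no letter is in capitals.
Eno2: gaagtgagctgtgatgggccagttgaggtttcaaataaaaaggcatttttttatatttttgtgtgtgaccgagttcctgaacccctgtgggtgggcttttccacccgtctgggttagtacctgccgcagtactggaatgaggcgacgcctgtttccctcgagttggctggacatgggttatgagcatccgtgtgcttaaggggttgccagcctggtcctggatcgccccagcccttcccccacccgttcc
This says only that these letters are absent from this window. Pkm, pyruvate kinase of muscle and most other tissues, was the most abundant of the 37 by normalized counts, at group means of 74951 and 57466 in the authors' deposited table, with a log2 fold change of -0.35 (SE 0.14, adjusted p = 0.122), and was not called. Per kb of merged exons Aldoa lay above it in Flt1+/+, at 18872 against 14987, followed by Pgk1 at 13021.

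**Figure D3:**
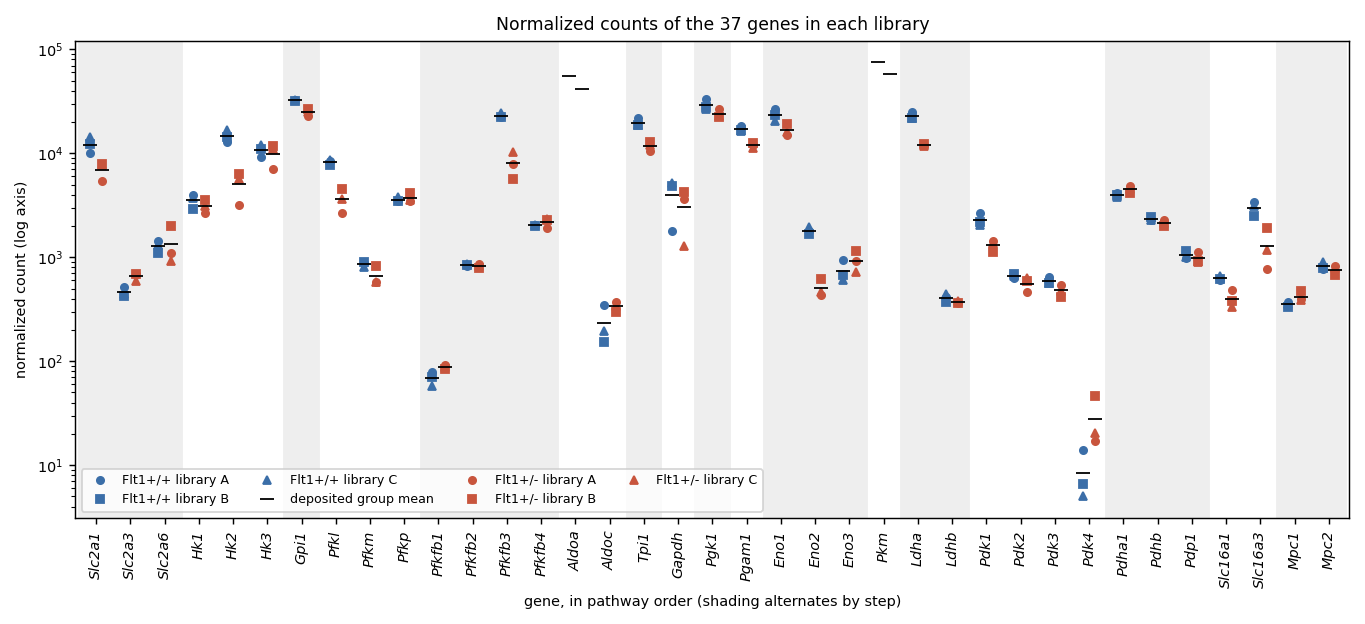
Normalized counts (vertical axis, log scale) of the 37 genes in pathway order (horizontal axis), with a symbol per library, Flt1+/+ in blue and Flt1+/- in red, and a dash at the deposited group mean. Red symbols lie below all blue ones for the 13 genes that fell, as for Eno2 at 430.5 to 623 against 1677 to 1938, while Gapdh is spread in both genotypes and Aldoa and Pkm have group means only.

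Of the 4 lactate genes, 3 fell. Lactate dehydrogenase is a tetramer of A and B subunits, and the A subunit favours the making of lactate from pyruvate. Ldha (chromosome 7, 46841475 to 46855627) stood at 25248, 21838 and 21709 normalized counts in Flt1+/+ libraries A, B and C and 11919.7, 12354 and 11821 in Flt1+/- libraries A, B and C. The heterozygote libraries lay within 11821 to 12354, the group mean fell by 47.5%, and the authors' deposited table lists a log2 fold change of -0.89 (SE 0.11, adjusted p = 2.22e-14). Ldhb stood at 411, 372 and 439 in Flt1+/+ and 366, 361 and 382 in Flt1+/-. Its groups overlapped and the limma interval was -0.40 to 0.13, against -1.13 to -0.73 for Ldha. Per kb the A subunit remained by far the larger part, at 96.4% ± 0.405 in Flt1+/+ and 93.9% ± 0.291 in Flt1+/- of the pair's reads, and the shares did not overlap. The upstream sequences of Ldha (chr7:46846832-46847081, plus strand) and Ldhb (chr6:142507958-142508207, minus strand) are shown for the subunit that fell and the one not called, with sites in capitals.
Ldha: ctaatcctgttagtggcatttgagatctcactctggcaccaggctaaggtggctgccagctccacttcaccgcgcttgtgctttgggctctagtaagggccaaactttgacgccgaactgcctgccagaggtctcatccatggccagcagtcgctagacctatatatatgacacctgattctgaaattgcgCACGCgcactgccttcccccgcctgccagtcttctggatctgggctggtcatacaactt
Ldhb: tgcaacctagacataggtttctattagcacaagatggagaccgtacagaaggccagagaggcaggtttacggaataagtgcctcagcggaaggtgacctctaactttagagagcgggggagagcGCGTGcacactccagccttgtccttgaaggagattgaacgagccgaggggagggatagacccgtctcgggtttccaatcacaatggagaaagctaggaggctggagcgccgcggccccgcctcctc
Each window held 1 site.

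Lactate crosses the plasma membrane through monocarboxylate transporters. Slc16a3, the form typical of cells that export lactate, stood at 3402, 2475 and 3101 normalized counts in Flt1+/+ libraries A, B and C and 770.5, 1920.3 and 1171 in Flt1+/- libraries A, B and C. Heterozygote library B was high and A low, a wide spread within the genotype, yet all lay below wild type. The group mean fell by 57.0%, with a log2 fold change of -0.92 (SE 0.22, adjusted p = 0.00158) in the authors' deposited table and a limma adjusted p of 0.0973. Slc16a1, the broadly expressed form, stood at 599, 620.1 and 664 in Flt1+/+ and 484, 379.7 and 330.3 in Flt1+/-. It fell by 36.6%, with a log2 fold change of -0.58 (SE 0.16, adjusted p = 0.0103) in the authors' deposited table and a limma adjusted p of 0.0877. In Slc16a1 heterozygote library A was the highest of its genotype, the reverse of Slc16a3, and the share of Slc16a3 in the pair per kb overlapped between genotypes, at 79.6% ± 2.84 in Flt1+/+ and 70.8% ± 12.4 in Flt1+/-. Both transporters need a partner to reach the membrane, and Bsg (basigin) and Emb (embigin), which serve that role, also fell, with a log2 fold change of -0.44 (SE 0.12, adjusted p = 0.00808) and a log2 fold change of -0.36 (SE 0.11, adjusted p = 0.0277) in the authors' deposited table. limma called neither, with adjusted p of 0.0694 and 0.0957.

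Of the 9 genes of pyruvate entry, 1 fell, a kinase that switches pyruvate dehydrogenase off. Pdk1 stood at 2644, 2185 and 2045 normalized counts in Flt1+/+ libraries A, B and C and 1446, 1133 and 1365 in Flt1+/- libraries A, B and C. It fell by 42.6% without overlap, with a log2 fold change of -0.73 (SE 0.15, adjusted p = 5.4e-05) in the authors' deposited table and a limma adjusted p of 0.0367. Its paralogues Pdk2 at 629, 698 and 661 in Flt1+/+ and 459, 585 and 625 in Flt1+/- and Pdk3 at 653, 559.5 and 569 in Flt1+/+ and 546, 418 and 474 in Flt1+/- were not called, although all heterozygote libraries lay below the wild type ones in both. Pdk4, which fasting and fatty acids are known to induce, was barely detected, at 13.9, 6.53 and 5.03 in Flt1+/+ and 17.1, 46.7 and 20.5 in Flt1+/-. Its values were higher in every heterozygote library and highest in B, and the authors' deposited table lists a log2 fold change of 0.62 (SE 0.25, adjusted p = 0.142). Of the kinases' reads per kb Pdk1 took 39.8% ± 2.52 in Flt1+/+ and 31.2% ± 2.58 in Flt1+/-, without overlap. The 4 kinases summed per kb went from 738 ± 52.9 to 540.2 ± 29.3.

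The enzyme that these kinases act on was not called in either direction. Pdha1, the subunit that they phosphorylate, stood at 4113, 3955 and 3763 in Flt1+/+ and 4799.7, 4185 and 4578 in Flt1+/-, with every heterozygote library above the wild type ones, and the limma interval was -0.00435 to 0.40. Pdhb, its partner subunit, stood at 2259.9, 2428 and 2301 in Flt1+/+ and 2284, 2001 and 2136 in Flt1+/-, and Pdp1, the phosphatase that switches the complex back on, at 995, 1152 and 998 in Flt1+/+ and 1116, 917 and 909 in Flt1+/-. The mitochondrial pyruvate carrier is made of Mpc1 and Mpc2, which stood at 373, 332 and 352 in Flt1+/+ and 400.3, 470.1 and 388 in Flt1+/- and at 777, 785 and 891 in Flt1+/+ and 819, 679 and 784 in Flt1+/-. Mpc1 did not overlap and Mpc2 did, and the limma intervals were -0.04 to 0.54 and -0.38 to 0.16. None of the 6 other genes of the complex and pyruvate carboxylation that were tested (Dlat, Dld, Pdhx, Pdp2, Pdpr and Pcx) was called by the deposited test or by limma. Over all genes these called 6.04% and 2.35% in either direction, so 0 of 6 lies near those shares. At an unadjusted p of 0.05 or less limma had 1 of the 6, beside 17.1% of all genes fitted.

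The heterozygote libraries differed among themselves. Over the 13 genes that fell, the median log2 difference from the wild type mean was -0.94 in library A, -0.72 in B and -0.92 in C. The medians of single wild type libraries lay within -0.04 to 0.06. They are near 0 by construction, and the 13 genes were called on these same libraries, so this contrast is no separate result. Single genes varied more, as Slc2a1 at -0.27 in wild type A and 0.24 in wild type C. Heterozygote library B was the highest of the 3 for 10 of the 13, the exceptions being Pfkfb3 and Pdk1, lowest there, and Slc16a1, and heterozygote library A was the lowest for 8. The genes not called had medians of -0.06 to 0.09. Within the libraries that hold mt-Co2 reads the 13 genes had a median log2 difference between genotypes of -0.98, and within the others -0.88. Because no library of these 13 genes overlaps between genotypes, the sign within any set of libraries is fixed and says nothing about its stability, and the sets, with at most 2 libraries of a genotype, carry no test. Adding these sets to the model, limma called 9 of 35, the 8 above and Slc2a1. Calls over all 15464 genes fitted then rose too, to 344 lower and 184 higher, from 230 and 134.

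**Figure D4:**
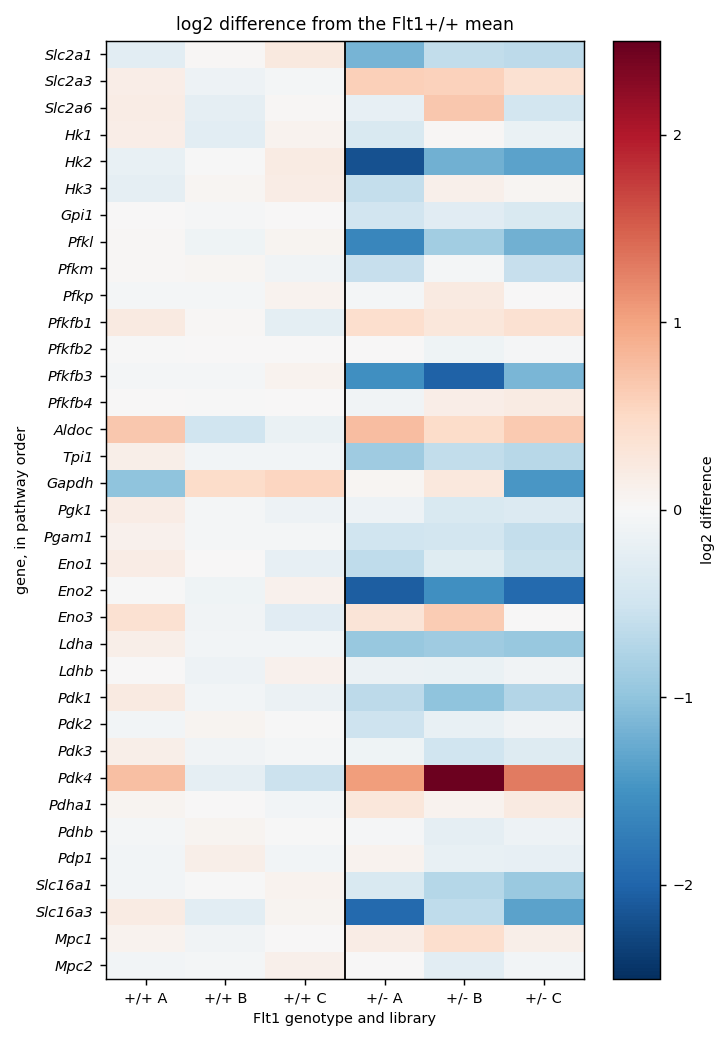
Log2 difference of each library (horizontal axis) from the mean of the Flt1+/+ libraries (colour) for the 35 genes with recovered reads in pathway order (vertical axis). Hk2, Pfkl, Pfkfb3, Eno2 and Slc16a3 are deepest blue in Flt1+/-, Pfkfb3 is lowest in library B, and Gapdh differs between libraries of the same genotype.

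Neighbouring routes of glucose metabolism were listed for comparison. Of 20 genes of the tricarboxylic acid cycle, which burns the pyruvate that enters the mitochondrion, 0 were called by the authors' deposited test and 0 by limma (1 at an unadjusted limma p of 0.05 or less, a threshold that 17.1% of all genes fitted met), with a median log2 ratio of -0.01. Of 11 genes of the pentose phosphate route, which makes NADPH, 0 were called by either (0 at an unadjusted limma p of 0.05 or less), with a median of -0.02. Over all genes, the deposited test called 6.04% and limma 2.35% in either direction. Counts of 0 in lists of 20 and 11 genes lie near those shares. Glycogen and glucose release genes fell in 6 of 21, with a median of -0.12. Pgm2, which moves phosphate on glucose between glycolysis and glycogen, went from 3525 ± 418 to 2186 ± 73.7 normalized counts (SD, n = 3), Ppp1r3b, which targets a phosphatase to glycogen, from 766 ± 69.5 to 504 ± 22.8, and Gbe1, the branching enzyme, from 1186 ± 117 to 810.2 ± 86.3. The other 3 that fell were Gys1, Ppp1r3c and G6pc3, and limma called Pgm2 and Ppp1r3b, with 7 of 21 at an unadjusted p of 0.05 or less. Among 16 tested isozymes and partners outside the 37 genes, 4 fell (Bsg, Emb, Ldhd and Eno1b), and limma called 0, with 5 at an unadjusted p of 0.05 or less. These lists were compared by count only, and no test of a difference between lists was made.

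The regulators of oxygen sensing were measured in the same libraries. Hif1a, the main HIF subunit of macrophages, was not called, at 4861 ± 108 and 5403 ± 692 normalized counts (SD, n = 3 each). The prolyl hydroxylase genes Egln1 and Egln3, which encode enzymes that mark HIF for breakdown and are themselves HIF targets, went from 2743 ± 311 to 1473 ± 88.4 and from 858 ± 195 to 252 ± 64.9, with a log2 fold change of -0.84 (SE 0.13, adjusted p = 9.08e-09) and a log2 fold change of -1.43 (SE 0.20, adjusted p = 2.22e-10) in the authors' deposited table. limma called both. Hif3a, a HIF subunit with inhibitory forms, rose from 221 ± 10.8 to 319 ± 16.7, with a log2 fold change of 0.48 (SE 0.15, adjusted p = 0.0229) in the authors' deposited table, and was not called by limma (adjusted p = 0.0782). The other 7 of 10 genes listed were not called, and limma had 4 of the 10 at an unadjusted p of 0.05 or less. RNA levels only were measured, so HIF protein, enzyme activity and lactate were not analysed here.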

How the data were processed

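Per the labels' protocols, ribosomal RNA was removed from total RNA and a strand-keeping kit made the libraries. FastQC, TopHat 1.0.0 and Cufflinks with build mm10 are named in the submitters' processing notes without roles. Which program counted reads, and whether by strand, is not given in the sources used here, so counts of overlapping, antisense or near-identical genes are uncertain. Per the file headers the table has the columns of a DESeq2 results table. Its 2 genotype columns hold the authors' signal, a mean of size-factor-normalized counts. The deposited log2 fold changes, which come with standard errors, are positive where Flt1+/- is higher and drawn towards 0, the deposited score is their ratio, and the deposited p-values come from both tails and are adjusted over genes. Calls needed an adjusted p of 0.05 or less and a mean of 1 or more; 15789 genes had an adjusted p.

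A mean over 3 libraries adds whole reads weighted by the inverse size factors. Size factors were solved from low means, then whole reads for every gene. Where several sets of reads matched the deposited digits, the only one with libraries within 2-fold, with an allowance for counting noise, was taken (6 of the 37 genes: Tpi1, Pfkfb3, Gpi1, Pgk1, Ldha and Eno1). This gave 26674 genes (99.6%), and median-ratio size factors recomputed from them lay within 0.0392% of those solved. On simulated means, with 1 dispersion for every gene, 26721 of 26778 wild type and 26679 of 26778 heterozygote genes came back right and 0 wrong. At that dispersion the libraries of abundant genes seldom differ by 2-fold. The simulation therefore does little to test the 2-fold rule for genes that vary more. For the 6 genes named, the rule favours a small spread within a genotype, which enters limma and the overlap of groups. limma 3.58.1 (R 4.3.3, with a trend, on log2 values with pseudocount 1, means of 10 or more, Benjamini-Hochberg) was fitted to 15464 genes. On simulated counts of 15336 genes with 1 dispersion it called 89.9% of genes changed 2-fold, 100% of those changed 4-fold and 5 unchanged genes. Exon lengths, coordinates and shared 50-base stretches came from GENCODE M21 (GRCm38), where 33 of 37 genes have the table's coordinates. Python 3.11.15, numpy, pandas and scipy did the rest. The 37 genes and the comparison lists were chosen with earlier results of these data known. Permutation tests of isoform shares were added after the data were seen. Genes named outside the 37 were Flt1, mt-Co2 and up to 3 called genes per list with the smallest adjusted p; Adgre1, Elane, Prtn3, Ctsg, Csf3r, Eno1b, Hif1a, Hkdc1 and other list members were chosen for mention with their values known.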

Additional observations from a re-analysis of the deposited data

How the results depend on the processing

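The deposited count of genes lower was 11 at an adjusted p of 0.01 and 13 at 0.1, and the count of genes higher was 0 at 0.01, where Slc2a3 is lost. Other minimum means left both counts as they were. The median log2 ratio ran from -0.28 to -0.24 under other pseudocounts, minimum means and a common total, and all 140 ratios of the 35 genes with recovered reads moved by less than 1 SD between libraries. Aldoa and Pkm have no such SD, and with a common total their ratios were -0.36 and -0.34, in place of -0.40 and -0.38. The limma count of genes lower ranged from 2 to 10 when 1 library was left out: 2 without wild type A, B or C, 3 without heterozygote C, 6 without A and 10 without B. An omission leaves 1 genotype with 2 libraries, and over all genes the count lower then ran from 24 to 256, beside 230 with all 6 libraries; the cause was not tested. Among the 35 genes the limma count lower was 6 with upper quartile scaling, which loses Pdk1 and Pgam1, and 9 with the library set as a term. It was 8 with voom weights, other pseudocounts or a minimum mean of 1. Over all genes the count lower under these settings ran from 183 with upper quartile scaling to 344 with the library set as a term. No setting called a gene higher, and no log2 difference of the 14 called genes reversed in limma. Without correction for length, the change of share in percentage points was -22.9 for Hk2, -20.5 for Pfkl and -1.23 for Ldha, in place of -20.8, -17.5 and -2.46, the weights by length being all that differs. The same setting turned the change for Eno1 to 1.96 points from -1.36, made that for Slc2a3 4.14 in place of 2.09, separated the genotypes' shares of Slc2a1, Hk1 and Eno1 and made those of Pfkm overlap. No paired analysis was possible because the table's columns carry no replicate numbers. The limma intervals rest on the spread between 3 libraries a genotype, with information on spread shared over genes. They were wide for Gapdh (-1.71 to 0.93), Slc2a6 (-0.67 to 0.67) and Slc16a3 (-2.04 to -0.56).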

Other observations

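Hkdc1, a hexokinase-like gene outside the 37, stood at 4.62, 8.39 and 17.1 normalized counts in Flt1+/+ and 2.45, 0 and 0 in Flt1+/- libraries, and the authors' deposited table gives it no adjusted p. Bpgm, which diverts an intermediate of lower glycolysis and regulates oxygen release from haemoglobin in red cells, stood at 707, 706 and 716 and 578, 543 and 543, with a log2 fold change of -0.34 (SE 0.12, adjusted p = 0.0564) in the authors' deposited table. Ldhd, which oxidises the other mirror form of lactate in mitochondria, stood at 243, 253 and 264 and 139, 198 and 138 and fell by the deposited test, not by limma (adjusted p = 0.11). Cs, citrate synthase, was higher in every heterozygote library, at 7982, 8388 and 7714 against 9213, 9091 and 9021, and was not called (adjusted p = 0.316 in the authors' deposited table). Idh2, of the same list, was lower in every heterozygote library and not called either (adjusted p = 0.456 in that table). Over all genes with a mean of at least 10, 11.4% lay wholly above and 12.3% wholly below in Flt1+/-.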
